A study of Mus musculus with 16 samples.

Results

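The thioredoxin and glutaredoxin system of the liver was described through 10 genes, chosen by symbol from the 18209 named genes of the deposited table: *Txnrd1*, *Txnrd2*, *Txnrd3*, *Txn1*, *Txn2*, *Txnip*, *Glrx*, *Glrx2*, *Glrx3* and *Glrx5*. All 10 were found and all 10 were among the 15781 genes that were abundant enough to be tested. The study sequenced liver RNA in 16 libraries from mice labelled male and 20 days old, 4 libraries for each of 4 genotypes. Every genotype carried 2 floxed copies of *Trsp*, the gene of the selenocysteine tRNA, so there was no library with an unmodified *Trsp* locus. The control was *Trsp* fl/fl. In *Trsp* fl/fl::*Alb*Cre, called the *Trsp* knockout here, Cre recombinase driven by the albumin promoter is used to remove *Trsp* in hepatocytes. The study calls the deletion hepatocyte-specific, so the other cells of the liver are meant to keep *Trsp*. The *Keap1* mutant, labelled Keap1C226SC613Shomo::Trspfl/fl, has serine in place of a pair of KEAP1 cysteines (C226S and C613S) on both alleles, with *Trsp* intact. The compound mutant, labelled Keap1C226SC613Shomo::Trspfl/fl::AlbCre, combines both changes. *Trsp* has no row among the named genes, which leaves its loss unmeasured here, and *Gpx1*, a selenoprotein mRNA, is given later as a reference. The labels number the libraries but do not say that each came from a different mouse, so p-values measure the spread between libraries.

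Thioredoxin is a small protein with a pair of active cysteines that reduces disulfides in peroxiredoxins, methionine sulfoxide reductases and ribonucleotide reductase. Thioredoxin reductase returns it to the reduced form with NADPH, and its C-terminal active site contains selenocysteine, the amino acid that the *Trsp* tRNA delivers at an in-frame TGA codon. Glutaredoxins do related work with glutathione, which glutathione reductase keeps reduced without selenium, and some of them carry iron-sulphur clusters instead of reducing disulfides. *Txnrd1* and *Txn1* are also known targets of NRF2, the transcription factor that KEAP1 holds back until its sensor cysteines are modified. The question put to these genes was therefore how their mRNAs stood in livers with *Trsp* deleted in hepatocytes. It was also asked whether this differed when 2 of the KEAP1 sensor cysteines were absent.

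The ends of the 3 reductase reading frames are shown because the TGA codon in them is the place where the *Trsp* tRNA acts. Each line holds the 30 coding bases before the selenocysteine codon, the codon itself in capitals, and the rest of the reading frame to its stop codon (GENCODE M21 on GRCm38, plus strand). *Txnrd1* is at chr10:82896007-82896045 in exon 14 of 14, *Txnrd2* at chr16:18477742-18477780 in exon 17 of 18, and *Txnrd3* at chr6:89674759-89674797 in exon 16 of 16.
Txnrd1: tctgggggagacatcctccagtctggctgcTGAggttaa
Txnrd2: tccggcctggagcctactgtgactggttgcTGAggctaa
Txnrd3: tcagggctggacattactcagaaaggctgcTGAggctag
In all 3 genes the codon is the last but 1 before the stop, followed by a single glycine codon. Over the 39 bases, *Txnrd2* and *Txnrd3* share 28, *Txnrd1* and *Txnrd3* share 26, and *Txnrd1* and *Txnrd2* share 22.

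The active-site codons of the thioredoxins and glutaredoxins are shown because they divide these members by chemistry: capitals mark the 4 codons from the first active cysteine, with 12 coding bases on each side (GENCODE M21 on GRCm38). In *Txn1* (chr4:57951809-57951844, minus strand) and *Txn2* (chr15:77924639-77927699, minus strand, spanning an intron) they read cysteine, glycine, proline, cysteine. In *Glrx* (chr13:75840023-75840058, plus strand) and *Glrx2* (chr1:143745080-143745115, plus strand) the outer codons are again cysteines. In *Glrx3* (chr7:137461401-137462993, plus strand, spanning an intron, the second of its 2 glutaredoxin sites) and *Glrx5* (chr12:105032874-105032909, plus strand) the last codon is a serine.
Txn1: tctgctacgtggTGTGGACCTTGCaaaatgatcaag
Txn2: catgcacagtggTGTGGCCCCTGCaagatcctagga
Glrx: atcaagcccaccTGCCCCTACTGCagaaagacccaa
Glrx2: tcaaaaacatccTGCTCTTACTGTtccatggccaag
Glrx3: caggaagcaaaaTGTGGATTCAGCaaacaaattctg
Glrx5: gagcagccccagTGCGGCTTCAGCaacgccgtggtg
The 12 capital bases of *Txn1* and *Txn2* agreed at 10 positions, and those of *Glrx3* and *Glrx5* shown here also at 10. *Txnip*, an alpha-arrestin that binds reduced thioredoxin, has no such site.

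The 16 libraries held 11386716 to 19164094 reads with a median of 15509634, with 779 to 1905 reads per library on *Txnrd1* and 31 to 104 on *Txnrd3*, the least read member, whose values carry the most counting error. The compound mutant library labelled male replicate 1 stood apart: *Xist* had 28799 reads there and 22 to 50 elsewhere, and Y-linked genes had 2 reads there and 1830 to 3066 elsewhere. These reads are of a female pattern, against the male label, and sex was not part of the fit. Member calls that use this library are therefore also given without it. It also had the lowest albumin share of reads, 4.86% against 6.35% to 10.8% elsewhere. Summed hepatocyte markers (5 of 5 genes found) were 1475700 to 1843700 normalized counts in the control and 1543000 to 1778600 in the *Trsp* knockout. They were 1766300 to 2091500 in the *Keap1* mutant and 804890 to 1628200 in the compound mutant, without overlap between these 2 genotypes. The part of this difference in the member changes was not tested. Summed erythroid markers (7 of 7 genes) ranged from 23075 to 46695 in the control and 10691 to 24731 in the *Trsp* knockout. They ranged from 9255 to 18510 in the *Keap1* mutant and 10945 to 70972 in the compound mutant, with *Epb42* at 0 in 1 library. The control and the *Keap1* mutant did not overlap, and all 7 genes were lower in the mutant (median log2 fold change -1.276, 0 passed). The part of this erythroid difference in the member changes was not tested either. Kupffer cell, endothelial, stellate and cholangiocyte marker sums overlapped between the control and each of the other genotypes. In bulk liver, fewer cells of a type and less RNA per cell cannot be told apart.

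Values are the deposited log2 values, that is, log2 of the normalized read count plus 4, and fold changes are differences on that scale. A gene passed when its limma p, adjusted by Benjamini-Hochberg over the 15781 genes, was under 0.05. For levels between genes, normalized counts were divided by the length of 1 principal transcript. In the control the most abundant members per kilobase were *Txn1*, the cytosolic thioredoxin, at 1553 ± 303 (SD, n = 4) and *Txn2*, the mitochondrial thioredoxin, at 1465 ± 125, whose ranges overlapped. *Txnip* followed at 1192, with libraries from 306 to 2740. *Txnrd1* (472 ± 57.6), *Glrx* (412 ± 135) and *Glrx3* (386 ± 40.4) formed the next step and did not differ beyond their spread. *Txnrd2* (192 ± 26.0) and *Glrx5* (179 ± 27.6) overlapped as well. *Glrx2* (102 ± 6.43) and *Txnrd3* (31.6 ± 4.22), a reductase best known from testis, lay below all the others, each without overlap. The reductase of each compartment was thus less abundant per length than its thioredoxin in the control liver, for both the cytosolic and the mitochondrial pair.

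**Figure D1:**
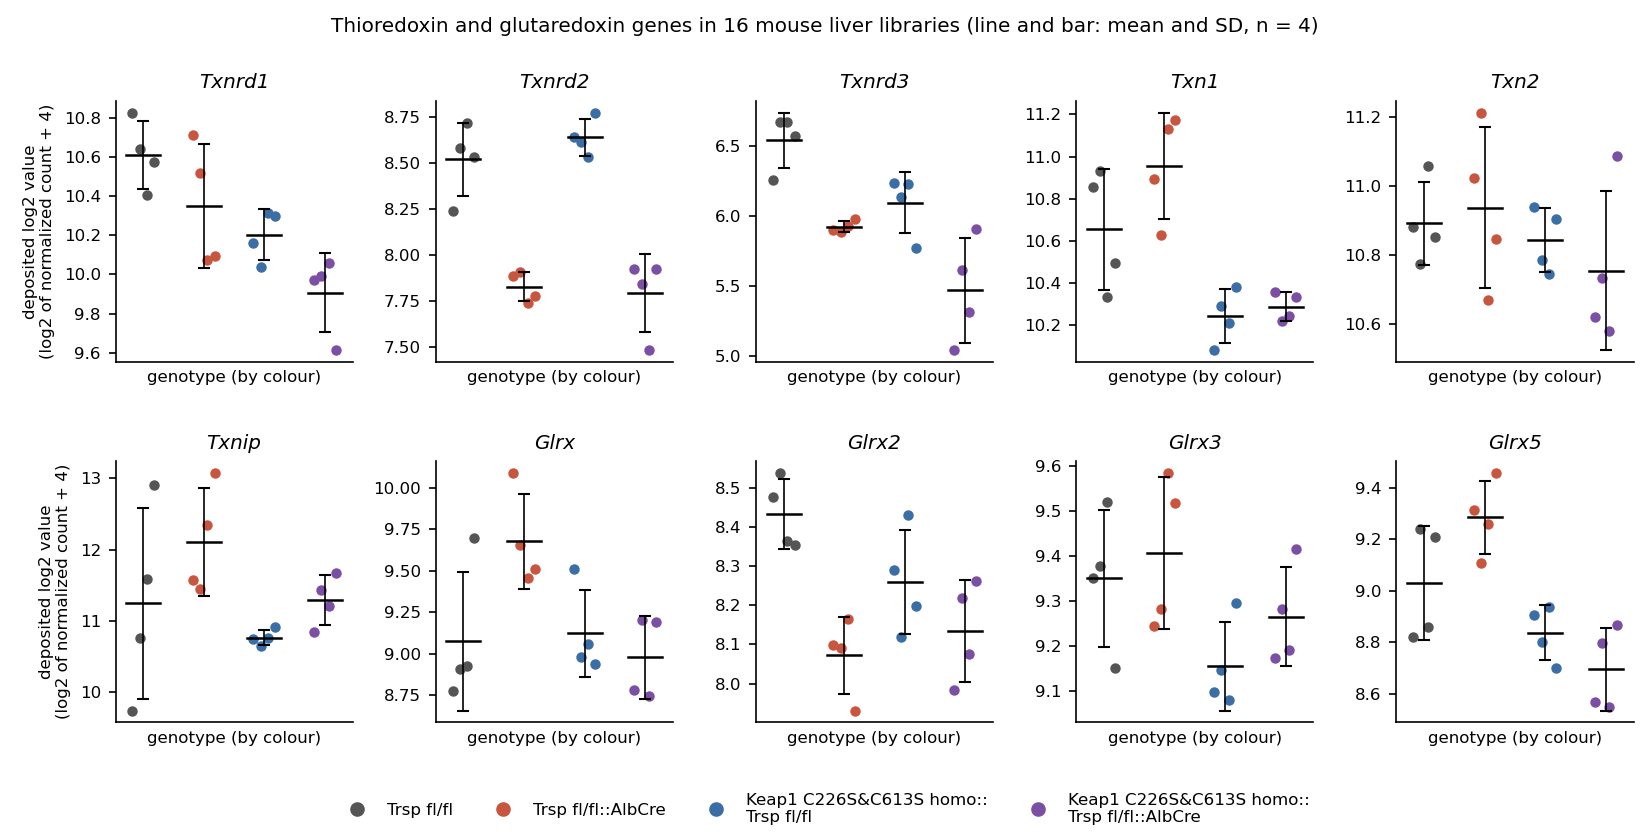
Deposited log2 value (y axis, log2 of normalized count + 4, with a separate scale per gene) of each of the 10 genes in the 16 libraries, coloured by genotype on the x axis, where each point is 1 library, the line is the mean and the bar is the SD (n = 4). *Txnrd2* lies lower in both genotypes with *Alb*Cre than in both without it, *Txn1* lies lower in both *Keap1* mutant genotypes than in the *Trsp* knockout, and the *Txnip* control libraries spread from 9.75 to 12.90.

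*Txnrd2*, the mitochondrial thioredoxin reductase (chr16:18426384-18479073), was the member that fell after *Trsp* deletion in both KEAP1 backgrounds. Its control libraries read 8.24, 8.59, 8.72 and 8.53, and its *Trsp* knockout libraries read 7.89, 7.91, 7.74 and 7.78. All 4 knockout libraries lay below all 4 controls. With mutant KEAP1, the *Keap1* mutant libraries read 8.64, 8.61, 8.54 and 8.77, and the compound mutant libraries read 7.92, 7.84, 7.48 and 7.93. These groups did not overlap either, and the ranges of both genotypes with *Alb*Cre overlapped. The log2 fold change of *Txnrd2* was -0.69 (95% interval -0.95 to -0.43, limma adjusted p = 0.0132) with normal KEAP1, which is 0.619 of the control level. It was -0.85 (95% interval -1.11 to -0.59, limma adjusted p = 0.00326) with mutant KEAP1, and -0.77 ± 0.09 (standard error) as the average of both (limma adjusted p = 0.000119). The difference between the backgrounds was -0.16 (95% interval -0.52 to 0.21, limma adjusted p = 0.753). With normal KEAP1 the call ended without control replicate 2 (limma adjusted p = 0.0562) and in a fit of the 2 genotypes alone (limma adjusted p = 0.0842), whereas with mutant KEAP1 and in the average it remained in all 16 fits that each left out 1 library. Without the compound mutant library that stood apart these were -0.89 and -0.79 (limma adjusted p = 0.00757 and 0.000276).

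*Txnrd3* (chr6:89643988-89675529) was lower by a similar amount but varied more. Its libraries read 6.25, 6.67, 6.67 and 6.57 in the control and 5.90, 5.88, 5.93 and 5.98 in the *Trsp* knockout, again without overlap. In the *Keap1* mutant they read 6.24, 6.13, 6.23 and 5.77, and in the compound mutant 5.04, 5.61, 5.31 and 5.91, where the groups overlapped through compound mutant replicate 4. *Txnrd3* differed by -0.62 in each background (limma adjusted p = 0.202 with normal and 0.136 with mutant KEAP1), so neither passed alone. The average over both, -0.62 ± 0.13 (standard error), passed (limma adjusted p = 0.0249). That call ended without any 1 of 5 libraries, namely control replicate 2, *Keap1* mutant replicates 1, 2 and 3 and compound mutant replicate 3, with limma adjusted p-values from 0.057 to 0.0624. Without compound mutant replicate 1 it was -0.55 (limma adjusted p = 0.0418).

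*Txnrd1*, the cytosolic thioredoxin reductase (chr10:82833951-82897712), did not pass after *Trsp* deletion. Control libraries read 10.83, 10.64, 10.40 and 10.57. Of the *Trsp* knockout libraries 2 lay within the control range, at 10.71 and 10.52, and 2 below it, at 10.07 and 10.09. *Txnrd1* differed by -0.26 (95% interval -0.58 to 0.05, limma adjusted p = 0.547) with normal KEAP1, -0.30 (95% interval -0.61 to 0.02, limma adjusted p = 0.4) with mutant KEAP1 and -0.28 ± 0.10 (standard error) on average (limma adjusted p = 0.227). No knockout library was above the highest control library.

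Of the 10 members, 1 passed after *Trsp* deletion with normal KEAP1, where 0.558% of all genes tested passed, and 1 with mutant KEAP1, where 0.798% did. In the average of both backgrounds 2 passed, both reductases and both lower, against 1.66% of all genes. The median change over the 10 members was 0.017 in that average, and over all genes -0.011. Every library of the *Trsp* knockout lay below every control library for 3 members, *Txnrd2*, *Txnrd3* and *Glrx2*, where 2.62% of all genes showed this. In the mutant KEAP1 background it held for *Txnrd2* alone, against 3.71% of all genes. No member reached the study's own rule of an absolute log2 fold change over 1 with an adjusted p under 0.01, which 0.215% of genes met with normal KEAP1 and 0.171% with mutant KEAP1. Only the cutoffs of this rule are the study's. They were applied to the limma fit of all 16 libraries, and the study's test on the iDEP platform was not repeated.

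**Figure D2:**
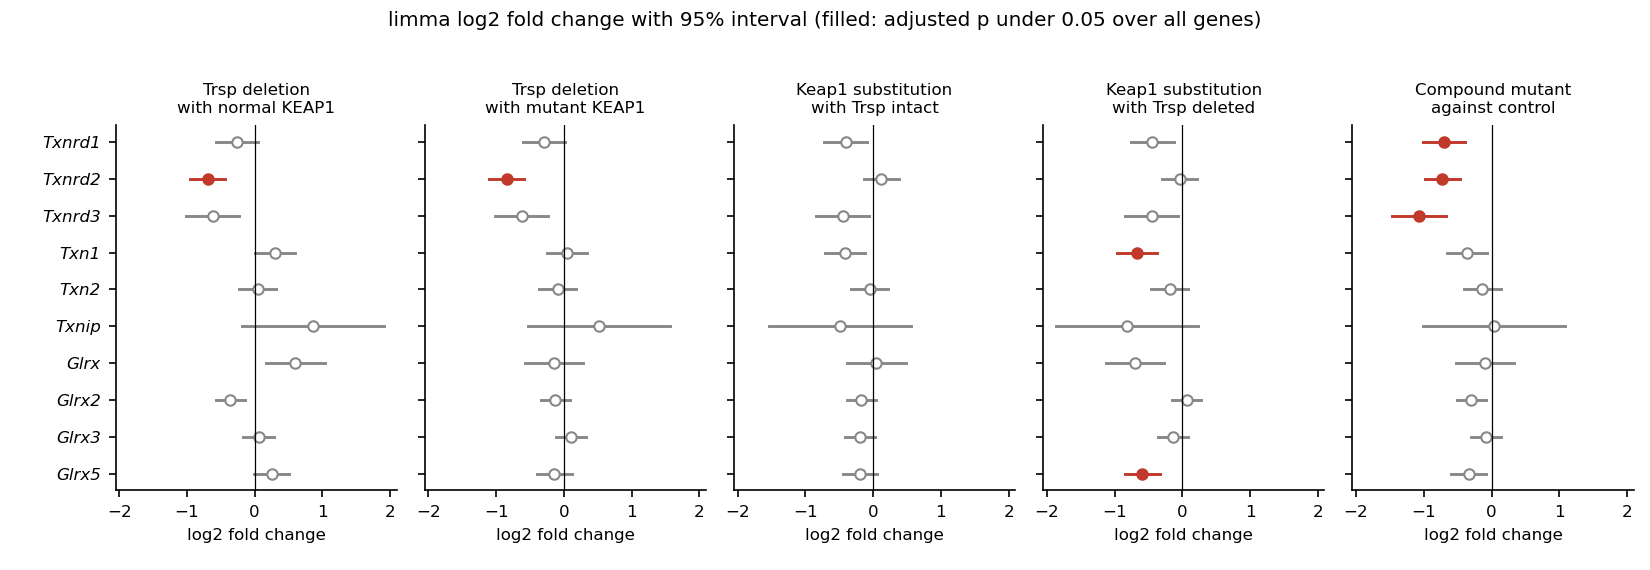
limma log2 fold change (x axis) of each member (y axis) with its 95% interval in 5 comparisons of 4 against 4 libraries, where filled red points passed an adjusted p under 0.05 over all genes. *Txnrd2* passes in both *Trsp* deletion panels, *Txn1* and *Glrx5* pass in the *Keap1* substitution panel with *Trsp* deleted, and all 3 reductases pass in the compound mutant panel.

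The thioredoxins themselves were not called after *Trsp* deletion. *Txn1* (chr4:57943373-57956411) read 10.85, 10.93, 10.33 and 10.50 in the control and 10.89, 10.63, 11.13 and 11.18 in the *Trsp* knockout. Replicates 3 and 4 of the knockout were the highest of all 16 libraries, and the other 2 lay inside the control range. *Txn1* differed by 0.30 (95% interval 0.00 to 0.60, limma adjusted p = 0.445) with normal KEAP1 and 0.05 (95% interval -0.25 to 0.34, limma adjusted p = 0.929) with mutant KEAP1. *Txn2* (chr15:77915047-77929006) had changes of 0.05 and -0.09 in the same comparisons, with limma adjusted p-values of 0.924 and 0.824. Its 4 group means lay between 10.75 and 10.94, and all 4 groups overlapped.

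The balance between each reductase and its thioredoxin was measured within a library, as the difference of their log2 values, which a change of scaling cannot move. For the mitochondrial pair, the log2 ratio of *Txnrd2* to *Txn2* was -2.37 ± 0.19 (SD, n = 4) in the control and -3.11 ± 0.16 in the *Trsp* knockout. It was -2.20 ± 0.07 in the *Keap1* mutant and -2.96 ± 0.21 in the compound mutant. The ratio was lower by 0.74 with normal KEAP1 and by 0.76 with mutant KEAP1, with no overlap between the groups in either comparison. A two-sided exact permutation test gave p = 0.0286 for each, the smallest that 4 against 4 libraries allow, and 0.1143 after adjustment over the 8 ratio tests. Without compound mutant replicate 1 the difference with mutant KEAP1 was -0.84 (exact permutation p = 0.0286).

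For the cytosolic pair, the log2 ratio of *Txnrd1* to *Txn1* was -0.04 ± 0.17 in the control and -0.61 ± 0.53 in the *Trsp* knockout. The 4 knockout libraries read -0.18, -0.11, -1.06 and -1.08, so 2 lay within the control range of -0.29 to 0.08 and 2 far below it. The difference of -0.56 did not pass (exact permutation p = 0.1143, adjusted 0.1829). In the compound mutant the ratio was -0.38 ± 0.24, against -0.04 ± 0.16 in the *Keap1* mutant (exact permutation p = 0.0857, adjusted 0.1829). The *Keap1* substitution moved neither ratio past the threshold in either *Trsp* background (exact permutation p from 0.1143 to 0.9429).

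**Figure D3:**
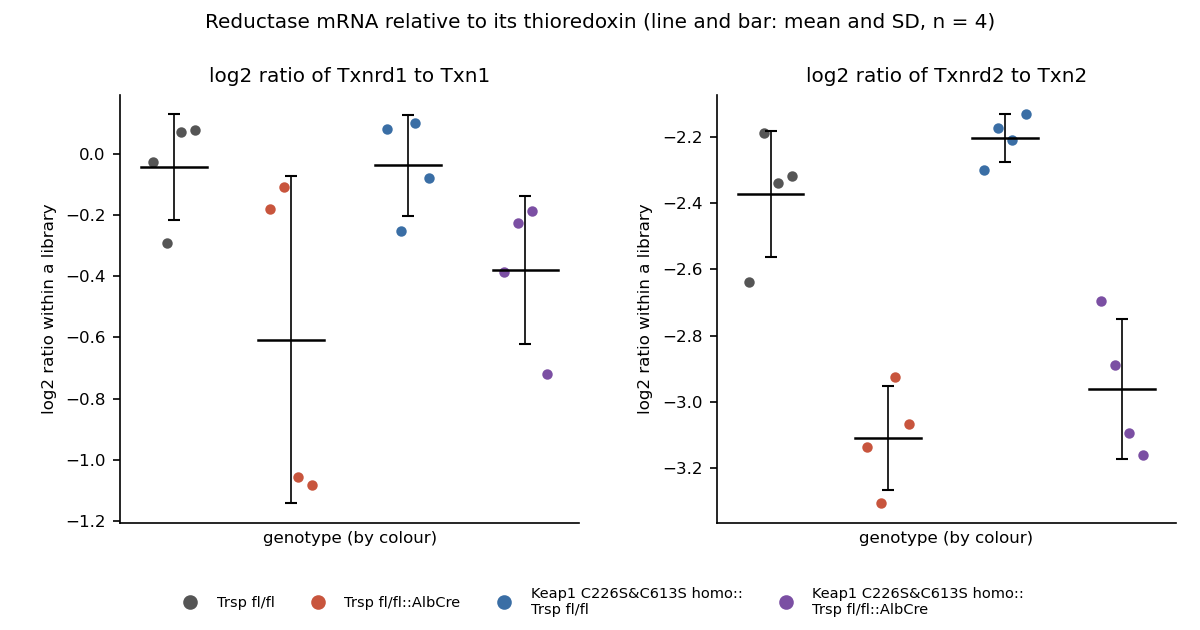
Log2 ratio (y axis) of reductase to thioredoxin mRNA in each of the 16 libraries, by genotype (colour), with mean and SD (n = 4), for the cytosolic pair on the left and the mitochondrial pair on the right. The *Txnrd2* to *Txn2* ratio separates the genotypes with and without *Alb*Cre, and the *Trsp* knockout libraries of the *Txnrd1* to *Txn1* ratio read -0.18, -0.11, -1.06 and -1.08.

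The reductases were set beside the other selenoprotein mRNAs, since all of them depend on the same tRNA. Of the other 17 selenoprotein genes tested, 7 fell and 0 rose after *Trsp* deletion in the average over KEAP1 backgrounds, with a median of -0.369. In that average 1.66% of all genes passed. *Gpx1*, the cytosolic glutathione peroxidase, changed by -1.98 (limma adjusted p = 1.57e-06), with means of 13.81 in the control and 11.70 in the *Trsp* knockout. *Selenow* was at -1.27 and *Selenot*, of the endoplasmic reticulum, at -0.79 (limma adjusted p = 2.8e-06 and 2.86e-05). *Gpx4*, the phospholipid hydroperoxide peroxidase, had a change of 0.09 (limma adjusted p = 0.593). By the size of its change *Txnrd2* stood next to *Selenot*, *Txnrd3* followed *Selenok* and *Msrb1* (-0.70 and -0.68), and *Txnrd1* lay between *Selenof* (-0.37) and *Selenoo* (-0.16). Differences between neighbours in this order were not tested.

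A stop codon that lies more than about 50 bases before the last exon-exon junction is known to mark an mRNA for decay, and an undecoded selenocysteine codon is read as a stop. In the annotation, the selenocysteine codon of *Txnrd2* lies 83 bases before the last junction, in the penultimate of 18 exons. Those of *Txnrd1* and *Txnrd3* lie in the last exon, each 63 bases past the junction. Among the 20 selenoprotein genes tested, 12 had the codon more than 50 bases before the last junction, of which 6 fell, with a median change of -0.781. In the same average 1.66% of all genes passed. The other 8 had it closer, in the last exon or, for *Sephs2*, in a single exon, of which 3 fell (*Txnrd3*, *Selenok* and *Msrb1*), with a median of -0.221. The 2 groups overlapped, from -1.98 to 0.26 and from -0.70 to 0.16. At the same distance *Txnrd1* had a change of -0.28 and *Txnrd3* one of -0.62, with overlapping 95% intervals. The part of codon position in these changes was not tested.

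**Figure D4:**
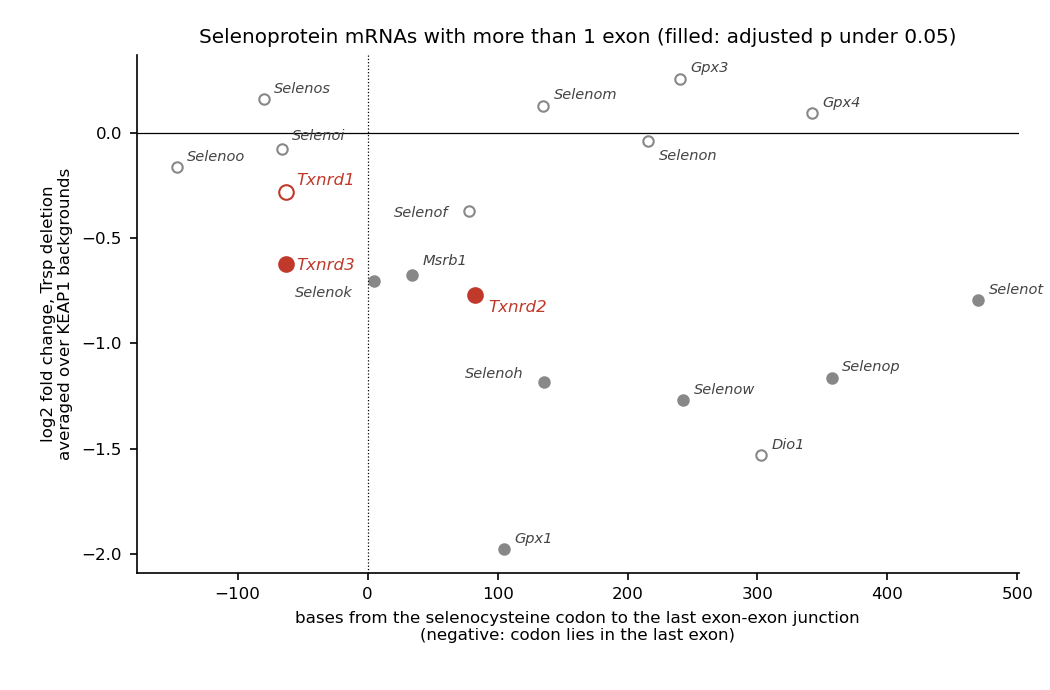
Log2 fold change after *Trsp* deletion averaged over KEAP1 backgrounds (y axis) against the number of bases from the selenocysteine codon to the last exon-exon junction (x axis, negative in the last exon) for the 19 tested selenoprotein genes with more than 1 exon, with reductases in red and genes past an adjusted p of 0.05 filled. *Txnrd2* sits at 83 bases and -0.77, and *Txnrd1* and *Txnrd3* both at -63 bases with -0.28 and -0.62.

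Among the glutaredoxins, none passed after *Trsp* deletion. *Glrx*, the cytosolic glutaredoxin, read 8.77, 8.91, 8.92 and 9.69 in the control and 10.09, 9.65, 9.45 and 9.51 in the *Trsp* knockout. Control replicate 4 reached into the knockout range. *Glrx* differed by 0.60 (95% interval 0.17 to 1.03, limma adjusted p = 0.26) with normal KEAP1 and -0.14 (95% interval -0.58 to 0.29, limma adjusted p = 0.823) with mutant KEAP1. The difference between these, -0.75, did not pass either (limma adjusted p = 0.41). All 4 compound mutant libraries, at 8.78, 9.20, 8.74 and 9.19, lay below the *Trsp* knockout libraries (log2 fold change -0.70, limma adjusted p = 0.0892).

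*Glrx2*, the mitochondrial dithiol glutaredoxin, read 8.48, 8.54, 8.36 and 8.35 in the control and 8.10, 8.09, 8.17 and 7.93 in the *Trsp* knockout, without overlap. Its log2 fold change was -0.36 (95% interval -0.57 to -0.15, limma adjusted p = 0.168), and -0.13 with mutant KEAP1 (limma adjusted p = 0.65). *Glrx2* encodes no selenoprotein. *Glrx3* and *Glrx5*, whose products carry and hand on iron-sulphur clusters, had changes of 0.06 and 0.25 with normal KEAP1 and 0.11 and -0.14 with mutant KEAP1, with limma adjusted p-values from 0.463 to 0.875.

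The *Keap1* substitution was followed by lower levels of *Txn1*. The *Keap1* mutant libraries of *Txn1* read 10.08, 10.29, 10.21 and 10.38, and the compound mutant libraries 10.36, 10.22, 10.24 and 10.33. All 4 compound mutant libraries lay below all 4 *Trsp* knockout libraries, while 1 of the *Keap1* mutant libraries lay inside the control range. *Txn1* differed by -0.41 (95% interval -0.71 to -0.12, limma adjusted p = 0.358) with *Trsp* intact and -0.67 (95% interval -0.97 to -0.37, limma adjusted p = 0.0208) with *Trsp* deleted. Averaged over both it was -0.54 ± 0.10 (standard error, limma adjusted p = 0.00835), and this call remained in all 16 fits that each left out 1 library. With *Trsp* deleted the call ended without any 1 of 4 libraries, *Trsp* knockout replicate 3 or 4 or compound mutant replicate 2 or 3, with limma adjusted p-values from 0.0582 to 0.0753. It also ended under quantile normalization (limma adjusted p = 0.0542), with the replicate number as a block (0.0527) and with the 2 genotypes alone (0.0572). Without compound mutant replicate 1 it was -0.69 with *Trsp* deleted and -0.55 on average (limma adjusted p = 0.0499 and 0.0154). The interaction was -0.26 (95% interval -0.68 to 0.17, limma adjusted p = 0.643), so the 2 backgrounds were not shown to differ.

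*Glrx5*, the mitochondrial monothiol glutaredoxin (chr12:105032688-105042906), moved in the same comparison. It read 9.31, 9.11, 9.26 and 9.46 in the *Trsp* knockout and 8.57, 8.80, 8.55 and 8.87 in the compound mutant, without overlap. In the control it read 8.82, 9.24, 8.86 and 9.21 and in the *Keap1* mutant 8.91, 8.80, 8.93 and 8.70, where the groups overlapped. Its log2 fold change was -0.59 (95% interval -0.85 to -0.33, limma adjusted p = 0.0176) with *Trsp* deleted, -0.20 (limma adjusted p = 0.66) with *Trsp* intact and -0.39 ± 0.09 (standard error) on average (limma adjusted p = 0.0259). Without the compound mutant library that stood apart it was -0.55 with *Trsp* deleted (limma adjusted p = 0.0689) and -0.37 on average (limma adjusted p = 0.0548). The call with *Trsp* deleted also ended without *Trsp* knockout replicate 1 or 4 or compound mutant replicate 3 (limma adjusted p from 0.0514 to 0.076). The average call also ended without control replicate 2, *Trsp* knockout replicate 4, *Keap1* mutant replicate 2 or compound mutant replicate 3 (limma adjusted p from 0.0576 to 0.0674). Of the other 16 genes for iron-sulphur cluster assembly on the list, 0 passed in limma in any comparison with the *Keap1* substitution. In these comparisons 0.0887% to 2.07% of all genes passed. *Bola3*, a partner of GLRX5, had the smallest p of that list in the average (log2 fold change -0.39, limma adjusted p = 0.0558).

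*Txnrd1* was also lower with the *Keap1* substitution. Its *Keap1* mutant libraries read 10.16, 10.04, 10.31 and 10.30, all below the 4 control libraries, and its compound mutant libraries read 9.97, 9.99, 10.06 and 9.61, all below the 4 *Trsp* knockout libraries. The change was -0.41 (95% interval -0.72 to -0.09, limma adjusted p = 0.407) with *Trsp* intact and -0.44 (95% interval -0.76 to -0.13, limma adjusted p = 0.136) with *Trsp* deleted. The average, -0.42 ± 0.10 (standard error), was at the threshold (limma adjusted p = 0.0493) and remained only without control replicate 3, *Trsp* knockout replicate 3 or 4 or compound mutant replicate 4. Leaving out any of the other 12 libraries gave limma adjusted p-values from 0.0645 to 0.11, with -0.43 and 0.0735 without compound mutant replicate 1. It remained under 1 of 9 other settings, with limma adjusted p-values up to 0.102. *Txnrd2* had no such change (average 0.04, 95% interval -0.14 to 0.23, limma adjusted p = 0.853), and *Txnrd3* had an average of -0.45 ± 0.13 (limma adjusted p = 0.091).

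With the *Keap1* substitution and *Trsp* intact, 0 of 10 members passed limma, where 0.0887% of all genes passed. Without adjustment the limma p-values of *Txnrd1*, *Txnrd3* and *Txn1* were 0.0142, 0.0282 and 0.0097. The share of all genes at such unadjusted values was not counted. A fit by limma voom on the recovered reads also gave 0 calls. With *Trsp* deleted 2 passed, against 2.07% of all genes, and in the average 3 passed, *Txn1*, *Glrx5* and *Txnrd1*, against 1.92%. All of these were lower, and the median over the 10 members in the average was -0.359, against -0.003 for all genes. Without overlap between groups, *Txnrd1* and *Txnrd3* were lower with *Trsp* intact, where 3.04% of genes were, and *Txnrd1*, *Txn1*, *Glrx* and *Glrx5* were lower with *Trsp* deleted, where 4.08% were. The study's rule was met by 0 members in both, and by 0.0127% and 0.570% of genes. Among lymphocyte markers, *Cd79a*, of the B cell receptor, and *Ms4a1*, a B cell surface protein, rose with the substitution in the average (log2 fold change 1.22 and 1.28, limma adjusted p = 0.00973 and 0.0405). *Cd3e*, of the T cell receptor complex, was at 0.10 (limma adjusted p = 0.915). The part of these cells in the results was not tested.

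For the interaction, which asks whether the effect of *Trsp* deletion differed between the KEAP1 backgrounds, 0 of 10 members passed limma, against 0.0951% of all genes. *Glrx* (-0.75) and *Glrx5* (-0.39) had unadjusted limma p-values of 0.0201 and 0.035, and limma voom gave 0 calls. The share of all genes at such values was not counted here either.

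All 3 reductases were lower in the compound mutant than in the control. *Txnrd1* differed by -0.70 (95% interval -1.02 to -0.39, limma adjusted p = 0.0411), *Txnrd2* by -0.73 (95% interval -0.98 to -0.47, limma adjusted p = 0.0124) and *Txnrd3* by -1.07 (95% interval -1.46 to -0.68, limma adjusted p = 0.015), which is 0.614, 0.604 and 0.476 of the control level. These 3 of 10 members passed, where 0.653% of all genes did, and together with *Glrx2* (-0.30, limma adjusted p = 0.212) they were the 4 members whose compound mutant libraries all lay below the controls, which held for 3.14% of genes. The study's rule was met by 0 members and 0.133% of genes. No other member passed.

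The compound mutant calls depended on single libraries and on the fit. A fit of the 2 genotypes alone ended all 3 (limma adjusted p = 0.104 for *Txnrd1*, 0.122 for *Txnrd2* and 0.122 for *Txnrd3*), and the *Txnrd1* call remained under 4 of 10 other settings. Without compound mutant replicate 1, which stood apart, *Txnrd1* was at -0.72 (limma adjusted p = 0.0989), *Txnrd2* at -0.77 (limma adjusted p = 0.0294) and *Txnrd3* at -0.93 (limma adjusted p = 0.0603). Without control replicate 2 no call remained (limma adjusted p = 0.138, 0.0575 and 0.0706), and without compound mutant replicate 3 those of *Txnrd1* and *Txnrd3* ended (limma adjusted p = 0.0993 and 0.0722). The *Txnrd1* call also ended without control replicate 1 or 4, *Keap1* mutant replicate 1, 2 or 3 or compound mutant replicate 2 (limma adjusted p from 0.056 to 0.115).

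The members were set beside the NRF2 targets in the same libraries. *Nqo1*, a quinone reductase, read 7.37 ± 0.15 in the control, 9.65 ± 0.39 in the *Trsp* knockout, 5.55 ± 0.10 in the *Keap1* mutant and 6.68 ± 0.43 in the compound mutant (SD, n = 4). *Srxn1*, the sulfiredoxin that repairs overoxidised peroxiredoxins, read 8.80 ± 0.21, 10.21 ± 0.10, 8.20 ± 0.14 and 8.95 ± 0.23. Of 19 NRF2 targets tested, 13 rose and 0 fell after *Trsp* deletion in the average, with a median of 1.140. With the *Keap1* substitution 15 fell and 0 rose, with a median of -1.311. Of all genes 1.66% and 1.92% passed in these averages. The *Trsp* deletion average joins backgrounds that differed. With normal KEAP1 14 targets rose, with a median of 1.956, where 0.558% of all genes passed. With mutant KEAP1 8 rose, with a median of 1.012, where 0.798% passed. In the interaction 3 targets passed, all lower, against 0.0951% of all genes. The largest averaged changes with the substitution included *Gstm3* (-4.09) and *Gstm1* (-2.37), glutathione transferases. Over all 19 targets the averaged changes after *Trsp* deletion ran from 0.19 (*Gclm*) to 3.40 (*Gsta2*). With the substitution they ran from -4.09 (*Gstm3*) to -0.02 (*Hmox1*). In the average after *Trsp* deletion *Txnrd1* lay below the range of the targets, at -0.28 (95% interval -0.50 to -0.06). *Txn1*, at 0.17 (95% interval -0.04 to 0.38), was not separated from *Gclm*, the lowest target (95% interval -0.04 to 0.43). The change of *Txn1* was 0.30 with normal KEAP1 and 0.05 with mutant KEAP1. With the substitution *Txnrd1* and *Txn1* were at -0.42 and -0.54, against the target median of -1.311. Both lay within the range of the targets, but so did every other member except *Txnrd2* (0.04), because that range reaches almost to 0. It therefore cannot set these genes apart from the other members.

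**Figure D5:**
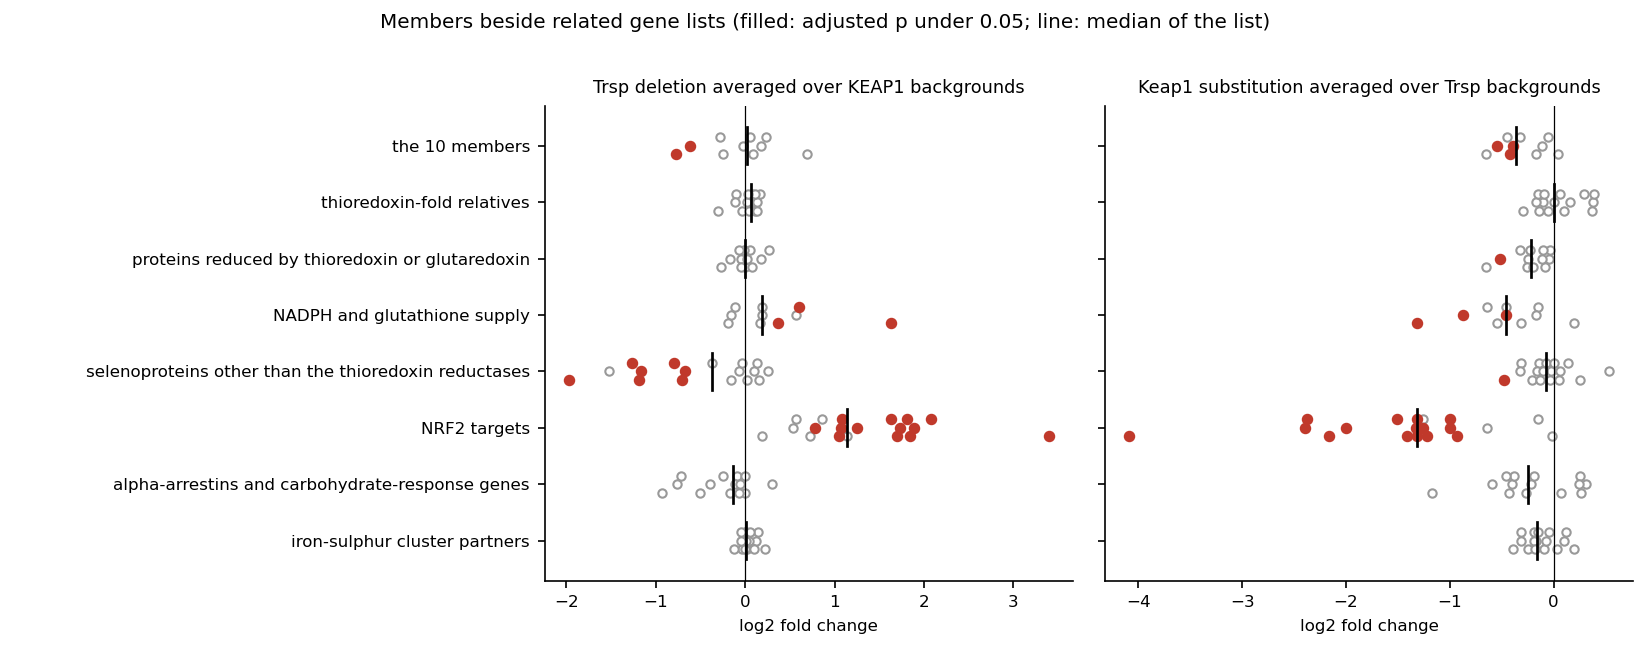
Log2 fold changes (x axis) of the 10 members and of 7 related gene lists (y axis) after *Trsp* deletion (left) and with the *Keap1* substitution (right), each averaged over the other background, where each point is a gene, filled points passed an adjusted p under 0.05 and the line is the median. The members centre near 0 on the left with *Txnrd2* and *Txnrd3* below, and lie at a median of -0.359 on the right, and the NRF2 targets lie at 1.140 and -1.311.

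A promoter is printed for *Txnrd1* because it was the single member promoter with a match to the core of the antioxidant response element that NRF2 binds. TGACNNNGC was searched on both strands in the RefSeq promoters of GRCm38.p6, each from 250 bases before to 50 after an annotated start. Of the 16 promoters of the 10 members 1 held a match, 6.2%, against 12.4% of all 32851 promoters. At the level of genes, 6 of 17 NRF2 targets with a promoter in the table held a match, 35.3%, as did 3781 of all 27025 genes. The matching *Txnrd1* promoter is the middle one of 3 (chr10:82858956-82859255, plus strand), and the capitals mark the match on the opposite strand, whose first base lies 92 bases before the start.
Txnrd1: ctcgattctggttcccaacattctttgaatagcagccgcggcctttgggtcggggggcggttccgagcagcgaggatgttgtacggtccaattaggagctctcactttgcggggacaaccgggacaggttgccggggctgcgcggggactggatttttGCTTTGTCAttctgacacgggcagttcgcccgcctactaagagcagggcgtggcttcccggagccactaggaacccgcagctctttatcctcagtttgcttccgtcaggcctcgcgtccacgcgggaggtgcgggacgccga
These letters are a match only, and binding was not measured.

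Of 10 genes tested that supply NADPH and glutathione, 3 rose after *Trsp* deletion in the average (*Me1* 1.63, *Gsr* 0.60 and *Gss* 0.37, limma adjusted p = 0.00979, 0.00446 and 0.0441) and 3 fell with the *Keap1* substitution (*Me1* -1.31, *Tkt* -0.87 and *Gsr* -0.46, limma adjusted p = 0.0313, 0.00463 and 0.0212), while 7 did not pass in each and 1.66% and 1.92% of all genes did. *Me1* is malic enzyme, *Gss* glutathione synthetase and *Tkt* transketolase. *Gsr*, the glutathione reductase on which the glutaredoxins depend, read 9.91 ± 0.28 in the control, 10.60 ± 0.10 in the *Trsp* knockout, 9.54 ± 0.22 in the *Keap1* mutant and 10.05 ± 0.15 in the compound mutant (SD, n = 4). *Gsr* was higher in the *Trsp* knockout (log2 fold change 0.70, limma adjusted p = 0.0273), where *Txnrd2* was lower.

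The genes for proteins that thioredoxin and glutaredoxin reduce were counted as well. Of 12 tested, 0 passed limma after *Trsp* deletion in the average, where 1.66% of all genes did. With the *Keap1* substitution 1 fell, where 1.92% of all genes passed. This was *Msra*, a methionine sulfoxide reductase (-0.52, limma adjusted p = 0.0301). After deletion 5 of the averaged changes were positive and 7 negative, and with the substitution all 12 were negative, with a median of -0.216. *Prdx1*, a cytosolic peroxiredoxin, had changes of 0.27 after deletion and -0.33 with the substitution (limma adjusted p = 0.149 and 0.0642). *Prdx3*, its mitochondrial relative, had 0.17 and -0.25. Of 15 relatives with a thioredoxin fold, 0 passed limma in either average, against the same shares of all genes, with medians of 0.065 and 0.008. *Nxn* and *Pdia3*, with changes of 0.38 and 0.39 under the substitution, were among them.

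*Txnip* was the most variable member and passed in no comparison. Its control libraries read 9.75, 10.76, 11.59 and 12.90, which is 856, 1730, 3087 and 7659 normalized counts. The *Trsp* knockout read 11.58, 11.45, 12.34 and 13.07, the *Keap1* mutant 10.74, 10.65, 10.76 and 10.91, and the compound mutant 10.85, 11.43, 11.21 and 11.67. The SD was 1.34 in the control and 0.11 in the *Keap1* mutant. *Txnip* differed by 0.86 after *Trsp* deletion with normal KEAP1, with a 95% interval from -0.19 to 1.91 (limma adjusted p = 0.553), an interval too wide to give its direction. The list of alpha-arrestins and carbohydrate-response genes, the class to which *Txnip* belongs by its response to glucose, had 0 of 14 calls in limma in either average. In these averages 1.66% and 1.92% of all genes passed. *Arrdc4*, the closest relative of *Txnip* in that response, differed by -0.19 (95% interval -0.78 to 0.39) after *Trsp* deletion with normal KEAP1. *Mlxipl*, the glucose-responsive factor ChREBP, differed there by 0.30 (95% interval -0.31 to 0.91).

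The genes whose levels went most closely with 3 of the members over the 16 libraries were found by Pearson correlation of the log2 values, given as a description since the libraries share 4 genotypes. For *Txn1* they were *Psmb5*, *Spryd7* and *Pebp1* (0.948, 0.925 and 0.925), and the correlations within genotypes were 0.901, 0.852 and 0.868. For *Txnip* they were *Klf11*, *Fam214b* and *Retreg1* (0.903, 0.893 and 0.882, within genotypes 0.889, 0.862 and 0.841). For *Txnrd1* they were *Foxred1*, *Amd1* and *Rrn3* (0.824, 0.815 and 0.806, within genotypes 0.579, 0.773 and 0.756). *Psmb5* encodes a catalytic subunit of the proteasome. No NRF2 target of the list was among these genes, but the list holds 20 genes and only the 3 closest genes per member were looked at. A link of these genes to NRF2 was not tested.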

How the data were processed

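Per the labels, liver total RNA was depleted of ribosomal RNA and sequenced from a directional library kit. The authors quantified transcripts with Salmon against GENCODE M30 and used the iDEP platform. Their methods describe TPM, but the deposited values are log2 values, the log2 of reads divided by a size factor plus 4. Reversing this gave whole reads for 100% of values up to 20 reads (within 0.1 read). The 369 of 18578 rows without a gene identifier, 0.274% to 0.627% of reads, were left out.

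limma 3.58.1 (R 4.3.3; lmFit, contrasts, eBayes with trend) was run as planned on the deposited log2 values, with all 16 libraries, 1 mean per genotype and no covariate. A gene was tested where 4 or more libraries reached a normalized count of 10. P-values were adjusted over all 15781 genes. Ratios were tested by exact permutation (Python 3.11.15, numpy 2.4.6). Both were also run on simulated data, with outcomes not given here. The changes simulated for limma were larger than most of those of the members, so they do not show how well such small changes are found. Fold changes on this scale understate those of weakly expressed genes.

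The 10 members, the gene lists and the list genes named (the 3 with the smallest adjusted p per list in each averaged effect, plus *Nqo1*, *Srxn1*, *Gpx1*, *Gsr*, *Arrdc4* and *Mlxipl*) were chosen with earlier results of these data known. Other genes were named after their values were seen. Sequences and positions came from GENCODE M21 and RefSeq on GRCm38, whereas the authors' annotation is of a later build, so no coordinate was carried between them. Alternatives were other filters, pseudocounts (1 and 0.5), scalings, limma voom, eBayes without trend, the compared genotypes alone, a replicate block, each library left out and the study's rule. 1 gene of the lymphocyte marker list is not reported here.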

Additional observations from a re-analysis of the deposited data

Results flagged for a closer look

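In the 48 groups of 4 libraries examined (10 members and 2 ratios in 4 genotypes), 1 value stood apart from its group by the Dixon ratio, the gap to the nearest library divided by the whole range. Chance alone marks about 1 in 20 such groups. *Glrx* in control replicate 4 was at 9.69, against 8.77 to 8.92 in the other 3 control libraries, a ratio of 0.834, just over the critical value. Without that library, the log2 fold change of *Glrx* with the *Keap1* substitution in *Trsp*-deleted livers, in which the library takes no part, kept its value of -0.70 and its limma adjusted p went from 0.0892 to 0.0389, and after *Trsp* deletion with normal KEAP1 the change went from 0.60 to 0.81 (limma adjusted p from 0.26 to 0.0533).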

How the results depend on the processing

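Of 2050 member fold changes recomputed under other settings, 1932 kept their direction and side of the threshold, 68 lost a call, 3 gained one and 47 changed sign, none of them a call. With only the compared genotypes fitted, 0 members passed after *Trsp* deletion with normal KEAP1, with the *Keap1* substitution in *Trsp*-deleted livers, and in the compound mutant against the control. Quantile normalization left 1 with the substitution in *Trsp*-deleted livers. Under the study's rule 0 passed in every comparison. Without 1 library at a time, the count of members passing was 0 to 1 after *Trsp* deletion with normal KEAP1, 1 to 2 with mutant KEAP1 and 1 to 2 on average. It was 0 to 0 for the substitution with *Trsp* intact, 0 to 3 with *Trsp* deleted, 1 to 4 on average, 0 to 3 for the compound mutant and 0 to 0 for the interaction. The cause of these losses was not tested. With the replicate number as a block (replicate block), 1 member passed with the substitution in *Trsp*-deleted livers, 1 in the compound mutant, 1 in the averaged *Trsp* deletion and 1 in the averaged substitution. The labels do not say whether the numbers pair the libraries. Deviations of same-numbered libraries correlated from -0.32 to 0.31 and over 0.1 in 4 of 24 pairs. Libraries of unlike number were not compared in this way, so these values cannot decide it. Scaling by library totals moved the median of all genes to 0.120 for *Trsp* deletion with mutant KEAP1, 0.128 for the substitution with *Trsp* deleted, 0.112 for the compound mutant and 0.128 for the interaction. Under it the sign changed to 0.10 and 0.11 for the *Txnrd1* and *Txnrd3* interactions, 0.091 for *Txnrd2* with the substitution and *Trsp* deleted, 0.040 for *Txn2* after deletion with mutant KEAP1 and 0.042 on average, 0.029 for *Glrx* and 0.041 for *Glrx3* in the compound mutant, and 0.0034 for *Glrx2* after deletion with mutant KEAP1 and 0.0061 in the averaged substitution. Under quantile normalization it changed to 0.072 for the *Txnrd1* interaction and -0.014 for *Txn2* after deletion with normal KEAP1. Without 1 library, values that crossed 0 ranged as follows. In the interaction they were -0.13 to 0.086 for *Txnrd1*, -0.15 to 0.14 for *Txnrd3*, -0.88 to 0.17 for *Txnip* and -0.0029 to 0.12 for *Glrx3*. After deletion they were -0.046 to 0.14 for *Txn2* and -0.0096 to 0.11 for *Glrx3* with normal KEAP1, -0.0068 to 0.093 for *Txn1* with mutant KEAP1, and -0.077 to 0.023 for *Txn2* on average. With the substitution they were -0.087 to 0.0083 for *Txn2*, -0.98 to 0.067 for *Txnip* and -0.082 to 0.25 for *Glrx* with *Trsp* intact, -0.079 to 0.069 for *Txnrd2* with *Trsp* deleted and -0.0035 to 0.095 on average. In the compound mutant they were -0.46 to 0.59 for *Txnip* and -0.20 to 0.11 for *Glrx*. The *Txnrd1* to *Txn1* ratio with the substitution and *Trsp* intact ranged from -0.077 to 0.077, and that of *Txnrd2* to *Txn2* from 0.079 to 0.23, with an exact permutation p of 0.0286 without control replicate 2. With the replicate block, the *Txnrd2* to *Txn2* differences of -0.74 and -0.76 had p = 0.125, the smallest that 4 pairs allow in an exact test.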
